A study of Mus musculus with 12 samples.

Results

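The SIBLING genes (small integrin-binding ligand, N-linked glycoproteins) encode secreted phosphoproteins of bone and tooth matrix. The group has 5 members in mouse, Ibsp, Spp1, Dmp1, Mepe and Dspp, which were taken by symbol from the 24391 gene rows of the per-library count files, and all 5 were found. RNA came from the anterior hard palate of C57BL/6 mouse embryos at embryonic days 14.5 and 16.5 (E14.5 and E16.5). The mutants were labelled Shox2Cre; R26RFgf8, a genotype in which the Cre recombinase of Shox2-expressing cells switches on Fgf8 from the Rosa26 locus. The controls were labelled wild type, and the 4 groups, E14.5 mutants, E14.5 controls, E16.5 mutants and E16.5 controls, held 3 libraries each. Shox2 is active in anterior palate mesenchyme, so Fgf8 was driven in part of the dissected tissue, and bone was measured together with the other tissues of the palate. The labels do not say whether a library came from 1 embryo or a pool, so the p-values measure the spread between libraries of unstated origin.

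SIBLING proteins carry an integrin-binding RGD motif and long acidic stretches that are phosphorylated in the secretory pathway and bind calcium and hydroxyapatite. Ibsp, bone sialoprotein, is made by osteoblasts and promotes crystal nucleation, whereas Spp1, osteopontin, restrains crystal growth and is also made by osteoclasts and macrophages. Dmp1, dentin matrix protein, and Mepe, matrix extracellular phosphoglycoprotein, mark maturing osteoblasts and osteocytes, and Dspp, dentin sialophosphoprotein, is made mainly by odontoblasts of the tooth. The hard palate ossifies by the intramembranous route, in which mesenchymal cells become osteoblasts without a cartilage template.

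The 5 genes lie side by side on mouse chromosome 5, in the RefSeq order Dspp, Dmp1, Ibsp, Mepe and Spp1, with Sparcl1 on one flank and Pkd2 on the other. The 250 bases upstream of the annotated start are shown for Ibsp, Spp1, Dmp1 and Mepe, the members for which a promoter window was available. The sequences are from RefSeq on build GRCm38.p6, plus strand, 5′ to 3′, at chr5:104299037-104299286 for Ibsp, chr5:104434861-104435110 for Spp1, chr5:104197325-104197574 for Dmp1 and chr5:104325079-104325328 for Mepe. Spp1 and Dmp1 have 2 annotated start windows each, of which 1 is shown. Capitals mark ATTGG (the CCAAT box on the minus strand), the Runx core TGTGGT or its complement ACCACA, and GGTGAGAA, known as a fibroblast growth factor response element of the rat Ibsp promoter.
Ibsp: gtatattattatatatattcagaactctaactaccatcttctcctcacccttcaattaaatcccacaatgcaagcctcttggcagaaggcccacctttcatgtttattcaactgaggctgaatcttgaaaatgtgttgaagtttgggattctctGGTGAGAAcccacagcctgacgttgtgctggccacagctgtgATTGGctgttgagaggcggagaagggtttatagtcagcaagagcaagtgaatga
Spp1: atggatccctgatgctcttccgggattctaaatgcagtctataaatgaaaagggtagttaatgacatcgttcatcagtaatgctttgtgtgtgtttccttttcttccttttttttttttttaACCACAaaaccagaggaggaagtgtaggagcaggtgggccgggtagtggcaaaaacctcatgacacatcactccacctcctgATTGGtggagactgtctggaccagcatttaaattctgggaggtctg
Dmp1: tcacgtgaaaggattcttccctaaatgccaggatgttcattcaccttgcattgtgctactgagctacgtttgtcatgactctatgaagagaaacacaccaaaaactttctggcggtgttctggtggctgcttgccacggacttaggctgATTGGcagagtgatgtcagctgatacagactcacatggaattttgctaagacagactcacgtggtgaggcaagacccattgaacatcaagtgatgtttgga
Mepe: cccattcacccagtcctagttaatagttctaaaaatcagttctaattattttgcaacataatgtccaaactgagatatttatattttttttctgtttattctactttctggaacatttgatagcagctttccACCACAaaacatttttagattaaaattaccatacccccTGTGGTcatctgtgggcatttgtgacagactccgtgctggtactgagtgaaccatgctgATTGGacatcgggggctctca
Each of the 4 windows held 1 ATTGG, and both strands were searched. It began 54 bases before the start in Ibsp, 46 in Spp1, 101 in Dmp1 and 21 in Mepe. CCAAT or ATTGG occurred in 33.8% of 32851 mouse promoter windows of the same length. In all 4 windows the letters read TGATTGG, which overlaps ATTGG, was noticed only after the sequences had been viewed, and with its complement occurred in 7.23% of windows. The Runx core was present 1 time in Spp1 and 2 times in Mepe, against 14% of all windows, and its letters were not in the Ibsp and Dmp1 windows. GGTGAGAA or its complement was present in Ibsp, where it began 96 bases before the start, and in 1.08% of all windows. These matches describe letters in a window and were not tied to binding or expression here.

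Library depth ran from 76417891 to 125996587 counted reads, so 3 reads corresponded to 0.0234 to 0.0400 CPM, the unit of level used here (reads scaled to library size and by TMM factors over the 12 libraries). Fgf8 itself had a median of 10.8 CPM across the E14.5 mutants, against 0.275 CPM in controls of that age, and 16.5 CPM across the E16.5 mutants, against 0.430 CPM in their controls, with no overlap at either age. The median log2 fold change over all genes tested was 0.01 at both ages. Among the E16.5 libraries, mutant libraries 1 and 3 stood apart by neuronal genes. These genes summed to 290 and 178 CPM there, 62.6 CPM in E16.5 mutant library 2 and 49.1 to 53.5 CPM in E16.5 controls. Retinal genes summed to 136 and 83.1 CPM in the same 2 libraries, to 21.0 CPM in library 2 and to 30.7 to 34.2 CPM in E16.5 controls. At E14.5 neuronal sums were 129 to 143 CPM in mutants and 134 to 197 CPM in controls, which takes in the value of E16.5 mutant library 3. Retinal sums at E14.5 were 7.99 to 11.1 CPM in mutants and 7.62 to 10.5 CPM in controls. E16.5 mutant libraries 1 and 3 were therefore also left out, which leaves 1 mutant library at E16.5. The mutant effects at E16.5 and the contrasts of ages are given this way for Ibsp, Spp1, Dmp1 and Mepe. The ratios and shares at E16.5 are given with all 3. The libraries numbered 3 deviated together from their group means, with correlations of 0.559 to 0.695 across 13463 genes in the 4 pairs of groups compared, and results from replicates 1 and 2 alone are named where a call was lost. Xist differed in level between the groups, averaging 486 CPM in E14.5 mutants, against 780 CPM in their controls, and 899 CPM in E16.5 mutants, against 404 CPM in theirs, and its part in the member results was not tested. Ctnnb1, the gene of beta-catenin, set the E14.5 controls apart: it averaged 1837 CPM in E14.5 mutants against 235 CPM in E14.5 controls, whereas it averaged 1688 CPM in E16.5 mutants against 1856 CPM in E16.5 controls. Ctnnb1 was singled out after its values were seen, and its part in the E14.5 results and in every contrast that uses the E14.5 controls was not tested. Markers of the mesenchymal bone lineage were present in every group, with Runx2 at 151.9 to 202 CPM in E14.5 mutants, 259 to 326 CPM in E14.5 controls, 6.17 to 10.3 CPM in E16.5 mutants and 59.8 to 73.6 CPM in E16.5 controls.

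SIBLING transcripts were lower in mutant palates at both ages. At E14.5, 4 of the 5 members fell, Ibsp, Spp1, Dmp1 and Mepe, in an edgeR quasi-likelihood fit in which 4.57% of 16650 genes were called lower at an adjusted p below 0.05. At E16.5 all 4 members with enough reads to test fell, against 15.7% of 17169 genes called lower. The E14.5 test passed Ibsp, Spp1, Dmp1 and Mepe on their levels in both groups, and Dspp only through the controls. At E16.5, Mepe passed the low-count filter only through the controls, all 3 mutant libraries being under its limit of 0.113 CPM, so its call there adds no independent support. Dspp failed the filter at E16.5 and is too low to measure in that comparison. In these bulk libraries, fewer cells of a type and less RNA per cell cannot be told apart.

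**Figure D1:**
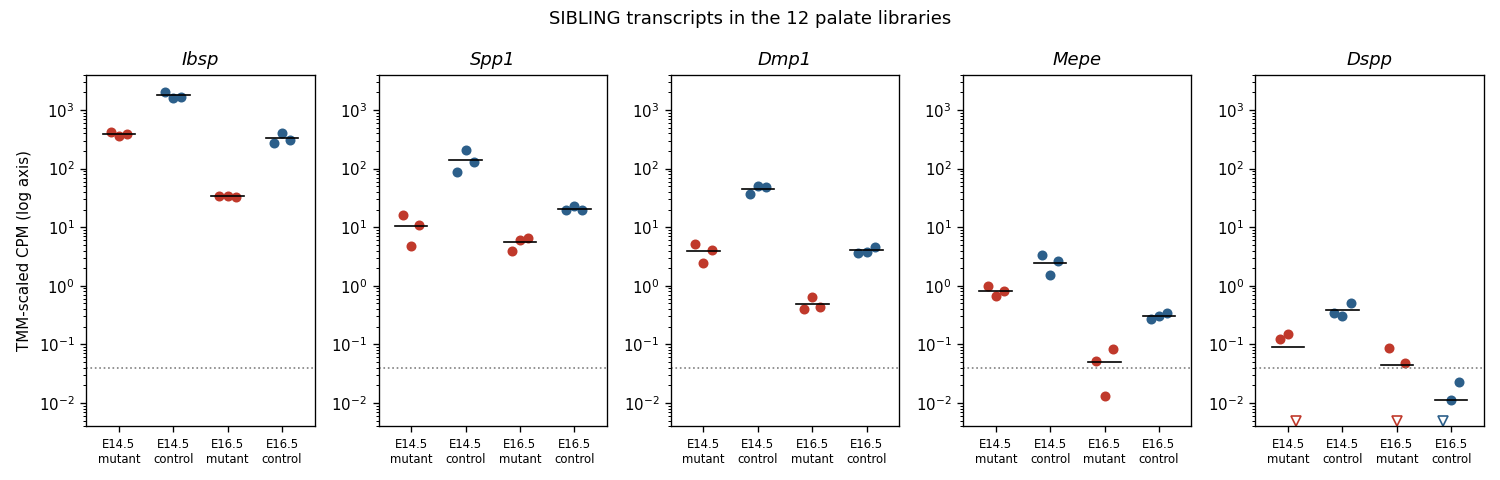
TMM-scaled CPM (log axis) of the 5 SIBLING genes in each of the 12 libraries, with mutants in red, controls in blue, a black line at the group mean, open triangles for libraries with 0 reads, and a dotted line at the level of 3 reads in the shallowest library (0.0400 CPM). For Ibsp, Spp1, Dmp1 and Mepe every mutant library lies below every control library of its age, and only Dspp reaches 0 reads. Of all genes tested, 14% at E14.5 and 24.5% at E16.5 separate in this direction.

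Ibsp was the most abundant member in every group. At E14.5 it stood at 429, 365 and 385 CPM in mutant libraries 1, 2 and 3, against 2006, 1622 and 1696 CPM in control libraries 1, 2 and 3. The groups did not overlap, a pattern that 14% of genes tested showed in this direction at E14.5. Expressed as a log2 fold change, the difference was −2.18 (SE 0.09, edgeR adjusted p = 1.63e-06), a 4.52-fold lower level, and only 4 of the genes tested had a smaller p. At E16.5 Ibsp stood at 34.6, 34.0 and 32.9 CPM in mutants, against 279, 399 and 312 CPM in controls. The mutant libraries were nearly level with each other (coefficient of variation 2.65%), and again the groups did not overlap, as for 24.5% of genes in this direction at E16.5. The log2 fold change at E16.5 was −3.26 (SE 0.14, edgeR adjusted p = 6.33e-06), or −3.27 without E16.5 mutant libraries 1 and 3 (adjusted p = 7.75e-06).

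Spp1 had uneven replicates at E14.5. It stood at 16.4, 4.71 and 10.8 CPM in E14.5 mutants, against 87.9, 205.9 and 130.0 CPM in E14.5 controls. Mutant library 2 was lowest and control library 2 highest, and the groups did not overlap. Its SD on the log2 scale was larger than that of 99.9% of 12923 expressed genes in E14.5 mutants and of 99.4% in E14.5 controls. Spp1 had a log2 fold change of −3.73 (SE 0.41, edgeR adjusted p = 0.000455), with values of −3.36 to −4.19 as each library was left out in turn. At E16.5 Spp1 stood at 4.0, 6.12 and 6.63 CPM in mutants, against 19.5, 22.8 and 19.3 CPM in controls. The controls were close together and every mutant library was below them. Its log2 fold change at E16.5 was −1.86 (SE 0.18, edgeR adjusted p = 0.000127), or −1.74 without E16.5 mutant libraries 1 and 3 (adjusted p = 4.61e-05).

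Dmp1 fell at both ages. It stood at 5.17, 2.44 and 4.15 CPM in E14.5 mutants, against 36.5, 50.5 and 47.7 CPM in E14.5 controls. As for Spp1, library 2 was the lowest of the mutants and the highest of the controls. Its log2 fold change there was −3.52 (SE 0.23, edgeR adjusted p = 1.17e-05). At E16.5 Dmp1 stood at 0.403, 0.653 and 0.429 CPM in mutants, from 36 to 49 reads a library, against 3.64, 3.74 and 4.66 CPM in controls. The groups did not overlap, and the log2 fold change was −3.0 (SE 0.25, edgeR adjusted p = 5.47e-05), or −2.61 without E16.5 mutant libraries 1 and 3 (adjusted p = 0.000156).

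Mepe was rarer than Ibsp, Spp1 and Dmp1. It stood at 0.990, 0.677 and 0.818 CPM in E14.5 mutants, against 3.31, 1.53 and 2.62 CPM in E14.5 controls. Control library 2, the highest for Spp1 and Dmp1, was the lowest control for Mepe, and the groups did not overlap. Mepe differed by a log2 fold change of −1.58 (SE 0.30, edgeR adjusted p = 0.0112). This call was lost without E14.5 mutant library 2 (−1.46, adjusted p = 0.0543) and in replicates 1 and 2 alone (−1.53, adjusted p = 0.0961). At E16.5 Mepe had 6, 1 and 7 reads in mutants (0.0515, 0.0133 and 0.0834 CPM), against 23, 27 and 31 reads in controls (0.275, 0.304 and 0.346 CPM). All 3 mutant libraries were lower than the controls, and library 2 held a single read. Summed over the libraries, 14 mutant and 81 control reads gave a level 6.08-fold lower in mutants, with an exact 95% interval of 3.42 to 11.6 that covers counting error only. In edgeR this was a log2 fold change of −2.55 (SE 0.55, edgeR adjusted p = 0.00968). It was −4.38 with mutant library 2 as the only mutant (adjusted p = 0.0303) and missed the threshold in replicates 1 and 2 alone (−2.97, adjusted p = 0.0550).

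Dspp was near the counting limit outside the E14.5 controls. At E14.5 it had 10, 12 and 0 reads in mutants, against 34, 39 and 43 reads in controls. Every mutant library was lower, but the edgeR test did not call the gene (log2 fold change −2.07, SE 0.68, adjusted p = 0.0991). The summed reads, 22 against 116, gave a level 4.17-fold lower in mutants, with an exact 95% interval of 2.63 to 6.91 for counting error only. At E16.5 it had 10, 0 and 4 reads in mutants, against 0, 1 and 2 reads in controls. These libraries overlapped at the level of a few reads. The summed reads were 14 in mutants against 3 in controls, too few to measure a fold. All 14 came from mutant libraries 1 and 3, which stood apart by neuronal and retinal genes, and library 2 held 0. Mmp20, enamelysin of the developing tooth, was likewise scarce, with 4 reads summed over the E14.5 mutants and 19 over the E14.5 controls.

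The size of the mutant effect differed between the ages for 2 members, in opposite directions. For Ibsp the effect was larger at E16.5, with a difference of −1.11 on the log2 scale (E16.5 effect minus E14.5 effect, SE 0.17, edgeR adjusted p = 0.000571). For Spp1 it was smaller at E16.5, with a difference of 1.84 (SE 0.53, edgeR adjusted p = 0.0258). Over all 17550 genes, 12.4% were called with a negative and 9.97% with a positive difference. The Ibsp call held in all 22 alternatives run. The Spp1 call held in 16 of 22 and was lost without E14.5 control library 2 (1.50, adjusted p = 0.0550), without E16.5 control library 1 (1.83, adjusted p = 0.0530) and without E16.5 mutant library 3 (1.72, adjusted p = 0.0573). It was also lost without E16.5 mutant libraries 1 and 3 (2.01, adjusted p = 0.0761), in replicates 1 and 2 alone (1.73, adjusted p = 0.210) and in limma-voom (1.87, adjusted p = 0.0515). For Dmp1 the difference was 0.47 (95% interval −0.34 to 1.28, edgeR adjusted p = 0.414) and for Mepe −1.0 (−2.27 to 0.28, adjusted p = 0.260), so neither was called. Without E16.5 mutant libraries 1 and 3 the difference was −1.08 for Ibsp (edgeR adjusted p = 0.0105), 0.92 for Dmp1 (adjusted p = 0.310) and −2.79 for Mepe (adjusted p = 0.162).

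All 5 members had lower levels at E16.5 than at E14.5 in control palates, in a comparison that called 32.1% of genes lower. The log2 fold change (E16.5 over E14.5) was −2.43 for Ibsp (SE 0.12), −2.78 for Spp1 (SE 0.38), −3.48 for Dmp1 (SE 0.24) and −3.0 for Mepe (SE 0.37), with edgeR adjusted p-values of 2.10e-09, 2.55e-05, 3.32e-08 and 9.58e-06. Dspp totalled 3 reads in E16.5 controls against 116 in E14.5 controls, a ratio of 0.0308 with an exact 95% interval of 0.00625 to 0.0921 for counting error, and it was called lower by edgeR (adjusted p = 0.00126). Dspp passed the low-count filter of this comparison only through E14.5 libraries, so its call adds no independent support to the count of 5. Its fitted log2 fold change of −4.91 rests on 3 reads and was −5.77 without E16.5 control library 3. In mutants Ibsp (−3.54, SE 0.13), Dmp1 (−3.01, SE 0.29) and Mepe (−4.0, SE 0.46) were called lower at E16.5, where 24.4% of all genes were (edgeR adjusted p = 2.32e-10, 1.82e-06 and 1.01e-05). Mepe was tested there only through the other groups, since all 3 E16.5 mutant libraries lay under the filter. Without E16.5 mutant libraries 1 and 3 the values were −3.50 for Ibsp, −2.56 for Dmp1 and −5.79 for Mepe, which then rests on 1 read, with edgeR adjusted p-values of 1.61e-07, 0.000699 and 0.000290. Spp1 was not called in mutants (−0.94, SE 0.39, edgeR adjusted p = 0.0599), its E16.5 and E14.5 libraries overlapped, and without E14.5 mutant library 2 it passed (−1.27, adjusted p = 0.00718). It also passed without E14.5 control library 1 (−0.94, edgeR adjusted p = 0.0437) and without E14.5 control library 2 (−0.91, edgeR adjusted p = 0.0495). These control libraries are not part of the contrast. They enter through the shared fit, by the estimate of spread, the scaling and the set of genes tested. Without E16.5 mutant libraries 1 and 3, Spp1 was at −0.77 (edgeR adjusted p = 0.319). Dspp was not called in mutants (14 reads at E16.5 against 22 at E14.5). Age cannot be told apart from other differences between the 2 dissections.

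Ordered by level, each member was highest in E14.5 controls and, Dspp apart, lowest in E16.5 mutants. The 2 groups in between were E14.5 mutants and E16.5 controls. For Ibsp they overlapped, at 365 to 429 CPM in E14.5 mutants and 279 to 399 CPM in E16.5 controls. For Dmp1 they overlapped as well, at 2.44 to 5.17 CPM in E14.5 mutants and 3.64 to 4.66 CPM in E16.5 controls. For Spp1, E14.5 mutants (4.71 to 16.4 CPM) lay below E16.5 controls (19.3 to 22.8 CPM) and overlapped E16.5 mutants (4.0 to 6.63 CPM). For Mepe all 4 groups were separate, and E14.5 mutants (0.677 to 0.990 CPM) lay above E16.5 controls (0.275 to 0.346 CPM).

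Per kilobase of annotated exon, group means ran in the order Ibsp, Spp1, Dmp1, Mepe and Dspp in all 4 groups. In E14.5 mutants the level per kilobase was 189.9 CPM for Ibsp, 6.46 for Spp1, 1.42 for Dmp1, 0.492 for Mepe and 0.0204 for Dspp. In E14.5 controls it was 858 CPM per kilobase for Ibsp, 85.7 for Spp1, 16.2 for Dmp1, 1.48 for Mepe and 0.0869 for Dspp. Neighbours in this order did not overlap between libraries, except Mepe (0.00793 to 0.0496) and Dspp (0 to 0.0194) in E16.5 mutants. As a share of the summed CPM of the 5 genes, Spp1 made up 2.53 ± 1.19% in E14.5 mutants and 7.33 ± 3.43% in E14.5 controls, but 13.9 ± 3.31% in E16.5 mutants and 5.85 ± 0.554% in E16.5 controls (SD, n = 3 each). Ibsp took 96.3 ± 1.46% in E14.5 mutants and 90.2 ± 3.87% in E14.5 controls, and 84.6 ± 3.36% in E16.5 mutants and 92.9 ± 0.728% in E16.5 controls. The log2 ratio of Spp1 to Ibsp was thus 1.65 lower in mutants than in controls at E14.5 (mutant minus control −1.65) and higher by 1.36 at E16.5, with no overlap at either age. The exact two-sided permutation test gave p = 0.1 for both, the smallest that 3 against 3 libraries allow (adjusted p = 0.171 over 12 such ratios).

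**Figure D2:**
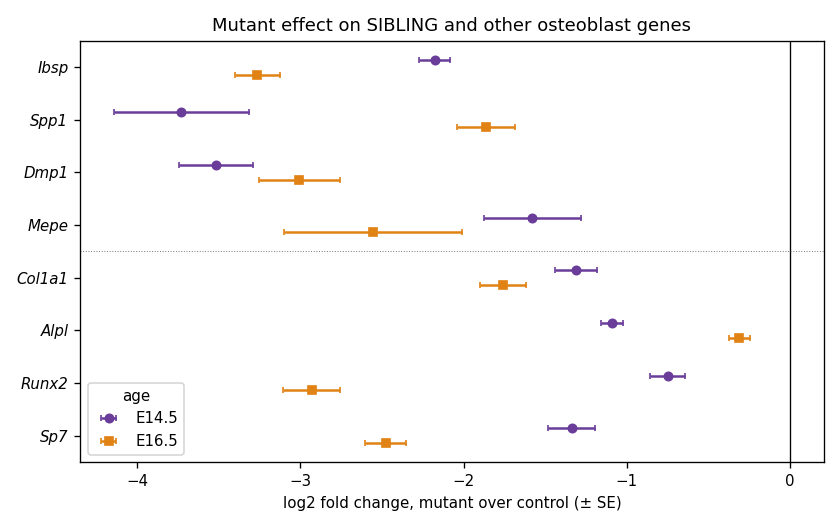
Log2 fold change of mutants over controls with its SE (edgeR, 3 against 3 libraries) at E14.5 (circles) and E16.5 (squares) for 4 SIBLING genes, above the dotted line, and for 4 other osteoblast genes. Ibsp is further from 0 at E16.5 and Spp1 at E14.5, while Runx2 runs from −0.75 at E14.5 to −2.93 at E16.5.

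To set the members beside the bone lineage in the same libraries, they were compared with Runx2 and Sp7, transcription factors needed for osteoblast formation, Col1a1, a chain of type I collagen, and Alpl, alkaline phosphatase. These genes fell too: at E14.5 by log2 fold changes of −0.75 (Runx2), −1.34 (Sp7), −1.31 (Col1a1) and −1.09 (Alpl), and at E16.5 by −2.93, −2.48, −1.76 and −0.31 in the same order. At E14.5 the log2 ratios of Ibsp, Spp1 and Dmp1 to each of the 4 were lower in every mutant library than in any control. These ratios reuse the same libraries and genes, so they are not separate observations. The share of all genes whose ratios would separate in this way was not computed. These 4 were not the bone matrix genes that fell most. At E14.5 Bglap (−4.38) and Bglap2 (−6.24) were called lower, by more than any SIBLING member. Their folds rest on few mutant reads, 2 in each library for Bglap and 2, 0 and 0 for Bglap2. At E16.5 Bglap fell (−2.18) and Bglap2 was not called (−0.10). Ibsp relative to Runx2 averaged 1.17 ± 0.294 in E14.5 mutants and 2.59 ± 0.187 in E14.5 controls, and relative to Col1a1 −2.68 ± 0.277 in mutants and −1.81 ± 0.239 in controls (log2, SD, n = 3 each). Spp1 showed the widest gaps, with mutant minus control differences from −2.50 against Sp7 to −3.07 against Runx2, and Dmp1 ranged from −2.25 against Sp7 to −2.82 against Runx2. Mepe differed by −0.21 to −0.77 at E14.5 and its groups overlapped against all 4 genes.

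At E16.5 the picture depended on the gene of comparison. Relative to Runx2, Ibsp (−0.30) and Dmp1 (−0.06) overlapped between mutants and controls, and Spp1 was 1.07 higher in mutants with no overlap. Relative to Sp7, Ibsp was lower in mutants (−0.76), Dmp1 was lower (−0.52) and Spp1 was higher (0.60), each with no overlap. Relative to Col1a1, Ibsp (−1.48) and Dmp1 (−1.24) were lower in every mutant library and Spp1 overlapped (−0.12). Relative to Alpl, all 3 were lower, with differences of −2.94 for Ibsp, −1.57 for Spp1 and −2.70 for Dmp1. Of the 32 ratios tested at the 2 ages, each without overlap gave an exact two-sided permutation p of 0.1, the smallest possible, and an adjusted p of 0.139, so none could pass 0.05.

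**Figure D3:**
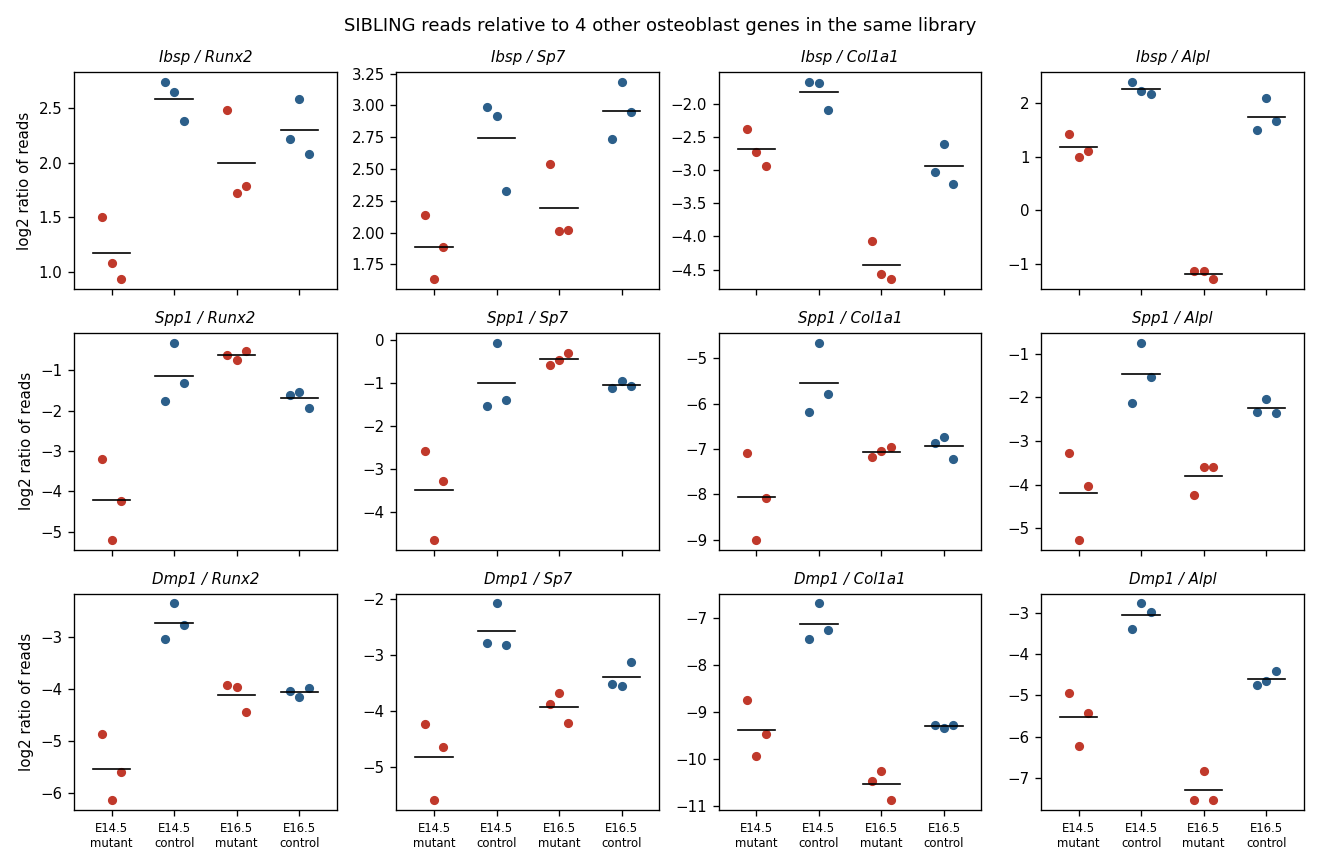
Log2 ratio of Ibsp, Spp1 and Dmp1 reads (rows) to those of Runx2, Sp7, Col1a1 and Alpl (columns) in each library, mutants in red, controls in blue, black lines for group means of 3 libraries. At E14.5 every mutant point lies below every control point in all 12 panels, while at E16.5 Spp1 relative to Runx2 lies higher in mutants (mutant minus control 1.07). The panels reuse the same libraries and genes and are not separate observations.

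Of the genes that modify or bind SIBLING proteins, Pcsk6, Mmp9, Fam20a and Tgm2 fell at both ages. Of 23 such genes, 6 fell and 0 rose at E14.5 (median log2 fold change −0.17, against 0.01 over all genes, of which 4.57% fell and 2.95% rose). Pcsk6, a proprotein convertase, fell by 1.02 at E14.5 and by 0.48 at E16.5, and Mmp9, a gelatinase abundant in osteoclasts, fell by 0.77 and by 1.82. Phex, the endopeptidase that degrades the acidic ASARM peptide of SIBLING proteins, fell by 1.70 at E14.5 (edgeR adjusted p = 2.42e-05), but at E16.5 it averaged 6.76 ± 0.775 CPM in mutants and 6.83 ± 1.30 CPM in controls (log2 fold change 0.01). Fam20c, the kinase that phosphorylates SIBLING proteins, was not called at E14.5 (−0.33, edgeR adjusted p = 0.0575) or E16.5 (0.15). Fam20a, its pseudokinase partner, fell at both ages (−0.62 and −0.44). At E16.5, 6 of the 23 rose and 5 fell (median 0.15), where 12.2% of all genes rose and 15.7% fell. Transglutaminase Tgm2, which crosslinks Spp1, fell by 0.42 at E14.5 and by 1.06 at E16.5, and Galnt3, a glycosyltransferase that stabilises FGF23, fell by 0.81 at E16.5. Pcsk5, another convertase, rose by 0.83. Of the integrin subunits, Itga5 (0.49), Itga8 (0.70), Itga4 (0.82) and Itgb3 (0.51) rose at E16.5. Itgav, which pairs with Itgb3 to bind RGD motifs, was not called at either age (0.00 and 0.14), nor was Cd44, a Spp1 receptor (0.15 at both).

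Sparcl1 and Pkd2, the genes next to the cluster on either side, were called lower at neither age. Sparcl1, adjacent to Dspp, averaged 145.0 ± 6.09 CPM in E14.5 mutants and 135.6 ± 9.50 CPM in E14.5 controls (log2 fold change 0.10, not called) and rose by 0.53 at E16.5. Pkd2, adjacent to Spp1, was not called at E14.5 (0.09) and rose by 0.25 at E16.5. Of the 13 secretory calcium-binding relatives and neighbours, 11 could be tested at E14.5, where 2 fell and 1 rose (median 0.05). Over all genes tested at E14.5, 4.57% fell and 2.95% rose. At E16.5, 10 could be tested, of which 1 fell and 4 rose (median 0.21), where 15.7% of all genes fell and 12.2% rose. The 1 that fell was Hsd17b13 (−1.87, edgeR adjusted p = 0.0219), which could not be tested at E14.5. Sparc, osteonectin, the ancestral relative encoded elsewhere in the genome, fell by 0.86 at E14.5 and was not called at E16.5 (−0.09). Abcg2, a transporter gene that neighbours PKD2 in the human genome, rose by 0.25 at E14.5 and by 0.69 at E16.5. Ambn, ameloblastin of enamel, fell by 0.73 at E14.5 and rose by 1.35 at E16.5.

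Other bone-lineage genes also fell at E14.5, and fewer of the transcription factors did at E16.5. Of 8 osteoblast transcription factors, 5 fell and 0 rose at E14.5 (median −0.72), among them Dlx3 (−0.98) and Dlx5 (−0.88). At E16.5, 3 fell, Runx2, Sp7 and Dlx5 (−2.45), and 2 rose, among them Msx2 (0.41), with a median of 0.08. Of the osteoblast matrix and mineralisation genes, 13 of 22 fell and 0 rose at E14.5 (median −0.57), and 12 of 23 fell and 3 rose at E16.5 (median −0.31). The phosphatase Phospho1 (−1.63 and −2.31) and the bone-restricted membrane protein gene Ifitm5 (−1.66 and −2.27) fell at both ages, as did Col1a2 (−0.98 and −2.79) and the lysyl oxidase Lox (−1.05 and −2.55). The sphingomyelinase Smpd3 fell by 1.46 at E14.5 and by 0.77 at E16.5. Of 8 osteocyte genes, which are background for Dmp1 and Mepe, 3 fell at E14.5, Dkk1 (−1.08), Irx5 (−0.48) and Cd109 (−0.39). At E16.5, 0 of 7 fell and Dkk1 rose by 0.86. Over all genes tested, 4.57% were lower and 2.95% higher at E14.5, and 15.7% were lower and 12.2% higher at E16.5.

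Spp1 is also made by osteoclasts and macrophages, and some of their genes fell at E14.5. Of 13 osteoclast genes, 6 fell at E14.5 (median −0.34), against 4.57% of all genes, including Mmp9 (−0.77), Atp6v0d2 (−0.74), Acp5 (−0.47) and Nfatc1 (−0.34). Their summed level was 296 to 312 CPM in E14.5 mutants and 370 to 401 CPM in E14.5 controls, with no list gene at 0 in every library. At E16.5, 4 rose and 1 fell of 12 (median 0.09), where 12.2% of all genes rose and 15.7% fell, with sums of 219 to 254 CPM in mutants and 209 to 226 CPM in controls. Those that rose were Atp6v0d2 (1.50), Ocstamp (1.49), Itgb3 (0.51) and Ctsk (0.47), and Mmp9 fell (−1.82). Atp6v0d2 and Ocstamp (−0.80 at E14.5) thus changed direction between the ages. Of 12 macrophage genes, 2 fell at E14.5, again against 4.57% of all genes, Csf1r (−0.40) and Mrc1 (−0.48), with sums of 107 to 146 CPM in mutants and 151 to 165 CPM in controls. At E16.5, 0 of 12 macrophage genes were called, with sums of 213 to 236 CPM in mutants and 238 to 257 CPM in controls. The part of these cells in the Spp1 result was not tested.

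Cartilage genes ran partly the other way. Of 14 tested, 6 rose and 3 fell at E14.5 (median 0.10), where 2.95% of all genes rose and 4.57% fell, and 8 rose and 2 fell at E16.5 (median 1.22), where 12.2% rose and 15.7% fell. Their summed level was 950 to 1028 CPM in E14.5 mutants and 1202 to 1466 CPM in E14.5 controls, and 884 to 1085 CPM in E16.5 mutants and 554 to 631 CPM in E16.5 controls. Col9a1 (2.39 and 2.82), Acan (1.91 and 1.87) and Sox5 (2.70 and 1.77) rose at both ages. Col11a2 fell at both ages (−2.13 and −2.29), with a level pattern close to that of Ibsp. Of 6 hypertrophic cartilage genes, 3 fell at E14.5, Panx3 (−1.41), Ihh (−1.13) and Runx3 (−0.51), and the same 3 were among the 5 tested at E16.5 and fell, with Mmp13 rising by 0.60. Of the odontoblast and tooth genes, 1 of 7 fell at E14.5, Ambn, and 3 of 6 rose at E16.5, Shh (0.97), Ambn and Nes (0.60). Of the neuronal genes, 0 of 8 were called at E14.5 and 8 of 8 rose at E16.5, led by Prph (2.33), Tubb3 (2.13), Stmn2 (2.41) and Elavl3 (4.85). Of the retinal genes, 0 of 5 were called at E14.5 and 5 of 8 rose at E16.5, among them Hes5 (4.96), Fgf15 (5.53), Rax (6.02) and Six6 (5.74). The E16.5 effects on Ibsp, Spp1, Dmp1 and Mepe without the 2 E16.5 libraries richest in these transcripts are given with each of these members above.

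**Figure D4:**
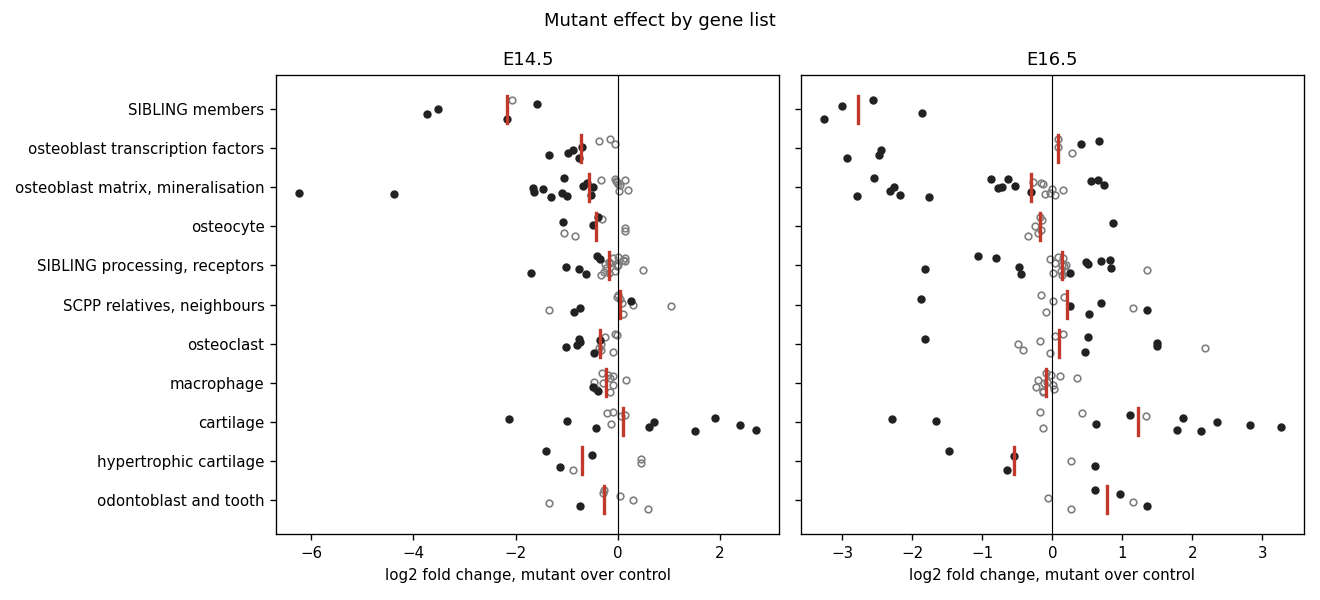
Log2 fold change of mutants over controls for each tested gene of 11 gene lists at E14.5 and E16.5, filled points being called by edgeR (adjusted p below 0.05), open points not called, and red bars list medians. The tested SIBLING members have medians of −2.18 at E14.5 and −2.78 at E16.5, and their passing the low-count filter through controls applies to Dspp at E14.5 and Mepe at E16.5.

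Across the 12 libraries, the gene whose log2 level was most like that of Ibsp was Ifitm5 (Pearson r = 0.991), followed by Phospho1 (0.987), Slc13a5 (0.987), Col11a2 (0.986) and Col1a1 (0.982). Ifitm5 averaged 23.6, 74.4, 3.02 and 14.7 CPM in E14.5 mutants, E14.5 controls, E16.5 mutants and E16.5 controls, the same ranking of groups as Ibsp. Spp1 had few close matches, with 1 of 12922 genes above r = 0.95, Rhbdl2 (0.950), a rhomboid protease gene. Spi1 (0.941), a transcription factor of myeloid cells, Dmp1 (0.939), Pcsk6 (0.936) and Lpar3 (0.933) came next. Dmp1 was most like Sgms2 (0.982), a sphingomyelin synthase, Loxl4 (0.981), Cmya5 (0.979), Sema3b (0.977) and Pgam2 (0.974). Mepe was most like Cdh8 (0.982), Panx3 (0.982), Fap (0.979), Nos1 (0.978) and Lrrc17 (0.978), of which Fap and Nos1 left the first 5 when a smaller prior count of 0.5 replaced 2. Between members, r was 0.969 for Ibsp and Dmp1, 0.958 for Ibsp and Mepe, 0.845 for Ibsp and Spp1, and 0.759 for Spp1 and Mepe. All these correlations are over the same 12 libraries in 4 groups, so they follow the group means, and they are descriptions without a test.

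The fold changes of SIBLING genes in the authors' deposited table are smaller than those above. For Spp1 at E14.5 the authors' deposited table gives a log2 fold change of −0.69, and for Dmp1 −1.63. For Mepe the authors' deposited table gives −0.83 at E14.5 and −1.27 at E16.5. The authors' deposited table differs least from edgeR for Ibsp, at −2.01 for E14.5 and −3.17 for E16.5. DESeq2 with a normal prior on the fold changes, run on the same counts, came within 0.00057 of the authors' deposited table for all 5 members at both ages, and a prior of this kind pulls noisy or low genes towards 0. The 1.62-fold change of Spp1 in the authors' deposited table at E14.5 therefore stands beside means of 10.6 ± 5.86 CPM in mutants and 141 ± 59.8 CPM in controls (SD, n = 3 each).

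**Figure D5:**
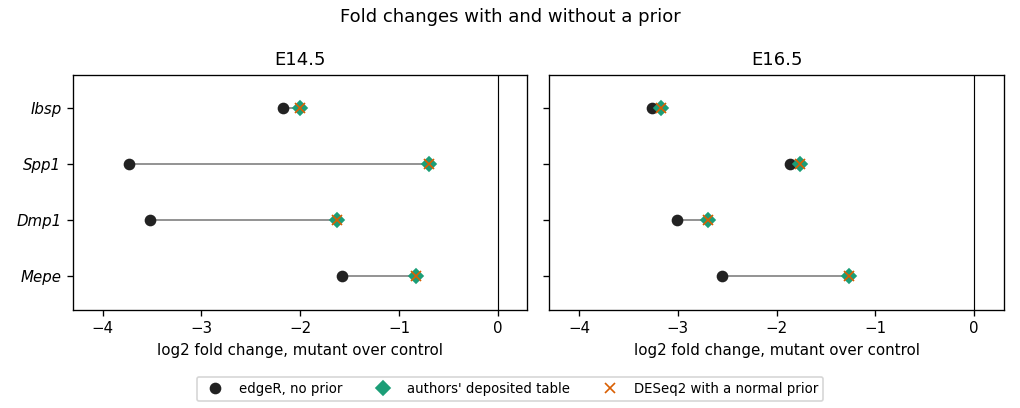
Log2 fold change of mutants over controls for Ibsp, Spp1, Dmp1 and Mepe at E14.5 and E16.5, from edgeR without a prior (circles), the authors' deposited table (diamonds) and DESeq2 with a normal prior (crosses). Crosses sit on diamonds throughout, and the gap to the circles is widest for Spp1 at E14.5 (−3.73 against −0.69) and narrow for Ibsp.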

How the data were processed

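Total RNA from anterior palate was sequenced in 12 libraries, 3 in each of 4 groups. Per the submitters' processing notes, HISAT2, featureCounts and DESeq2 were used with build mm9, and other settings, including strand, are not given in the sources used here. The deposited values are whole-number counts per gene. The authors also deposited comparison tables, from which log2 fold changes and adjusted p-values were read. The series' combined tables, with 24 library columns, were left out. Counts were tested in edgeR 4.0.16 under R 4.3.3 (TMM, filterByExpr with a minimum count of 10, glmQLFit, glmQLFTest, Benjamini-Hochberg over all genes), with 6 libraries per age for genotype and all 12 with 4 group means for age and for differences of effects. SE is the log2 fold change divided by the root of F. Ratios used 0.5 added reads and exact permutation tests. Alternatives included DESeq2 1.42.0 and limma 3.58.1. Scripts were tested on simulated data. The deepest library held 125996587 counts and the shallowest 76417891, and exact intervals of summed reads cover counting error only, while those of edgeR rest on the spread between libraries.

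Deviations of libraries with the same number correlated by 0.105, 0.161 and 0.222 between the E16.5 groups over 17550 genes. Between the E14.5 groups the values were 0.0193, 0.0445 and 0.160. Between E16.5 and E14.5 controls, which differ in age, 6 of 6 libraries also correlated best with their own number. The labels give no pairing, so the numbers are not read as a pairing of mutants with controls. Exon lengths were those of GENCODE vM21 on another build than the counts. Sequences came from RefSeq GRCm38.p6, which matched 23175 of 24389 gene names and all 5 members. No promoter window was available for Dspp.

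All 5 members are named, and from each list up to 4 called genes with the smallest adjusted p at each age, or a few more beside a result. Members and lists were chosen with earlier results of these data known.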

Additional observations from a re-analysis of the deposited data

Results flagged for a closer look

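The mutant effect on Ibsp and on Spp1 differed between the ages by a direct test. For Ibsp the E16.5 effect minus the E14.5 effect was −1.11 on the log2 scale (edgeR quasi-likelihood test, adjusted p = 0.000571), with all 3 mutant libraries below all 3 controls at each age. For Spp1 it was 1.84 (edgeR quasi-likelihood test, adjusted p = 0.0258), again with all 3 mutant libraries below all 3 controls at each age. Of all genes tested, 14% separated in this direction at E14.5 and 24.5% at E16.5. Such a separation describes each age and is not a test of the difference between ages. The Spp1 call was lost in 6 of 22 alternatives, among them limma-voom (1.87, adjusted p = 0.0515) and replicates 1 and 2 alone (1.73, adjusted p = 0.210).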

How the results depend on the processing

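Of 479 alternatives for single members, 465 kept the direction and the side of the threshold, 9 lost a call, 4 gained one, and 1 reversed; in 2 further cases DESeq2 gave no adjusted p. Mepe lost its call at E14.5 in replicates 1 and 2 alone (−1.53) and without E14.5 mutant library 2. At E16.5 Mepe lost its call in replicates 1 and 2 alone (−2.97). The difference between ages for Spp1 was lost in limma-voom (1.87), in replicates 1 and 2 alone (1.73) and without E16.5 mutant libraries 1 and 3 (2.01). It was also lost without E14.5 control library 2, without E16.5 control library 1 and without E16.5 mutant library 3. Over all omissions of single libraries the Mepe effect at E14.5 ranged from −1.84 to −1.31 and the Spp1 difference from 1.50 to 2.32. Where the Spp1 call was lost, the count of members called with a positive difference was 0. Over all omissions of single libraries that count ranged from 0 to 2. The Dspp difference reversed to −1.12 without E16.5 mutant libraries 1 and 3, where a single mutant library with 0 reads was left, and ranged from 3.13 to 4.89 on leaving out single libraries. Spp1 between ages in mutants ranged from −1.27 to −0.45. A filter of at least 5 CPM in 3 samples left 2 members called lower at E16.5 and 3 called lower with age in controls, because fewer members were tested. Except where that filter is named, the cause was not tested. Where a group was left with 1 library, its spread was taken from the other groups.

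With the replicate number as a block no member call changed: the mutant effect was −2.17 for Ibsp, −3.70 for Spp1, −3.53 for Dmp1 and −1.54 for Mepe at E14.5, and −3.25, −1.88, −3.01 and −2.61 in that order at E16.5. At E14.5, where 3 of 6 libraries correlated best with their own number (6 of 6 at E16.5, a hint from the data), the block raised the calls over all genes to 3155, against 1252 without it, a term for the libraries numbered 3 gave 2938, DESeq2 gave 2132, and leaving out single libraries gave 526 to 1412. At E16.5 the 4793 calls became 6742 with the block, 2286 in replicates 1 and 2 alone, 2781 to 5486 on leaving out single libraries, and 2496 without E16.5 mutant libraries 1 and 3. The 3921 genes with a difference between ages became 6055 with the block, 1961 in replicates 1 and 2 alone, and 2017 without E16.5 mutant libraries 1 and 3. Depth limited Mepe in E16.5 mutants and Dspp outside the E14.5 controls.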
